A study of Homo sapiens with 6 samples.

Results

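The G2 and mitosis genes described here are 60 human genes that act between the end of DNA replication and cell division. They were taken from a list of gene symbols, a rule that uses no measured value, but the list was drawn up with earlier results of these data known. All 60 were found among the 28452 genes of the table, through 218 RefSeq transcript entries summed per gene, and all 60 passed the filter on low counts. The study measured RNA from A549 cells, an established line of human lung adenocarcinoma, after stable lentiviral infection with an shRNA construct. There were 3 groups of 2 libraries: shCBX8-1 and shCBX8-2, both with an shRNA against CBX8, and control, with a control shRNA. The cells of all groups grew in the same medium with 10% fetal bovine serum, and all carried an integrated lentivirus, the controls included. The labels do not give the hairpin sequences, and they do not say if a group's libraries are separate cultures or repeats of 1 culture. The p-values therefore measure only the spread between these samples, and that spread may be technical.

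CBX8 is a chromobox protein of the Polycomb repressive complex PRC1, which binds chromatin marked by histone methylation and represses genes. Genes of G2 and mitosis are silent or low in resting cells and are switched on late in the cell cycle. The DREAM complex, built on the MuvB core, represses them in resting cells, and the same core together with MYBL2 (B-MYB) and FOXM1 activates them in dividing cells, through a promoter element called the CHR (cell cycle genes homology region). Their products carry out mitosis in order: cyclin B and CDK1 start it, condensins pack the chromosomes, kinetochores attach them to the spindle, the anaphase-promoting complex (APC/C) releases the sister chromatids, and the central spindle guides cytokinesis.

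The libraries held 64197784 to 67169537 estimated counts each. CBX8 itself had 7.79 and 7.7 CPM in shCBX8-1, 17.8 and 13.8 CPM in shCBX8-2 and 24.6 and 26.2 CPM in control, a log2 fold change of -1.72 ± 0.16 in shCBX8-1 (adjusted p = 0.00708) and of -0.69 ± 0.15 in shCBX8-2 (adjusted p = 0.0297). The hairpin group with more CBX8 left was shCBX8-2, with a log2 difference from shCBX8-1 of 1.02 ± 0.15 (adjusted p = 0.0115). CDKN2C and SCEL, which the title of the study names, rose in both knockdown groups, by 0.86 and 1.27 on the log2 scale in shCBX8-1 and by 1.08 and 1.76 in shCBX8-2. Levels are given in CPM (TMM-scaled counts relative to library size), and folds are log2 fold changes ± standard error from edgeR's quasi-likelihood test with Benjamini-Hochberg adjustment over the 17115 genes tested. A gene was called at an adjusted p under 0.05. The libraries of shCBX8-2 differed from each other by a median of 0.24 on the log2 scale over all genes tested, against 0.128 between the libraries of shCBX8-1 and 0.129 between those of control. A 10-gene list of A549 and epithelial markers summed to 32500 to 33200 CPM in shCBX8-1, 37400 to 41500 CPM in shCBX8-2 and 37400 to 38000 CPM in control. The epithelial keratins KRT8 and KRT18 led this list, and other epithelial genes in it were low. KRT19 averaged 4.04 CPM in shCBX8-1, 0.578 CPM in shCBX8-2 and 0.383 CPM in control. EPCAM averaged 4.16 CPM in shCBX8-1, 7.68 CPM in shCBX8-2 and 3.41 CPM in control, and CDH1 10.85, 18.1 and 20.5 CPM in the same order. The summed level of 8 leukocyte markers was at most 4.88 CPM in shCBX8-1, 5.09 CPM in shCBX8-2 and 6.5 CPM in control, with CD3E and MS4A1 at 0 in every library. Fibroblast markers (8 genes) summed to at most 10.0 CPM in shCBX8-1, 6.24 CPM in shCBX8-2 and 15 CPM in control, and endothelial markers (6 genes) to at most 4.29 CPM in shCBX8-1, 5.94 CPM in shCBX8-2 and 2.82 CPM in control. A list of 8 genes found in HEK293-type packaging cells, in which lentiviruses are commonly made, summed to 141 to 154 CPM in shCBX8-1, 78.7 to 88.4 CPM in shCBX8-2 and 132 to 137 CPM in control. INA and NEFL led this sum, and the genes of the list did not move together. PAX2 had a log2 fold change of 1.17 in shCBX8-1 and -1.54 in shCBX8-2, and GATA3 of -1.105 in shCBX8-1 and -0.97 in shCBX8-2. The part of these markers in the results below was not tested.

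The G2 and mitosis genes were higher in both knockdown groups than in control, and more of them passed the test in shCBX8-2. In shCBX8-1, 9 of 60 were called higher, where 1.34% of all genes tested were called higher, and in shCBX8-2 39 of 60 were called higher, where the share of all genes was 6.03%. Their median log2 fold change was 0.282 in shCBX8-1 and 0.554 in shCBX8-2, against -0.0093 in shCBX8-1 and -0.0441 in shCBX8-2 over all genes tested. All 60 had a positive estimate in shCBX8-1 and 58 in shCBX8-2, the exceptions being LMNB1 and PTTG1. By edgeR 0 members were called lower in either group, where 1.13% of all genes were called lower in shCBX8-1 and 6.64% in shCBX8-2. At an unadjusted p under 0.05 there were 0 lower members in shCBX8-1 and 1 in shCBX8-2, LMNB1, and the DESeq2 Wald test called 0 lower in both. Without shCBX8-2 replicate 2, however, edgeR called 2 members lower in shCBX8-2, ECT2 and LMNB1, where 17.2% of all genes were called lower. Both shCBX8-1 libraries lay above both control libraries for 55 members, where the share over all genes was 28.4%, and both shCBX8-2 libraries did so for 52, where it was 26.0%. All 4 knockdown libraries lay above both control libraries for 49 members, where 13.2% of all genes did. In these bulk samples, more cells in G2 and mitosis and more RNA of these genes per cell cannot be told apart.

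**Figure D1:**
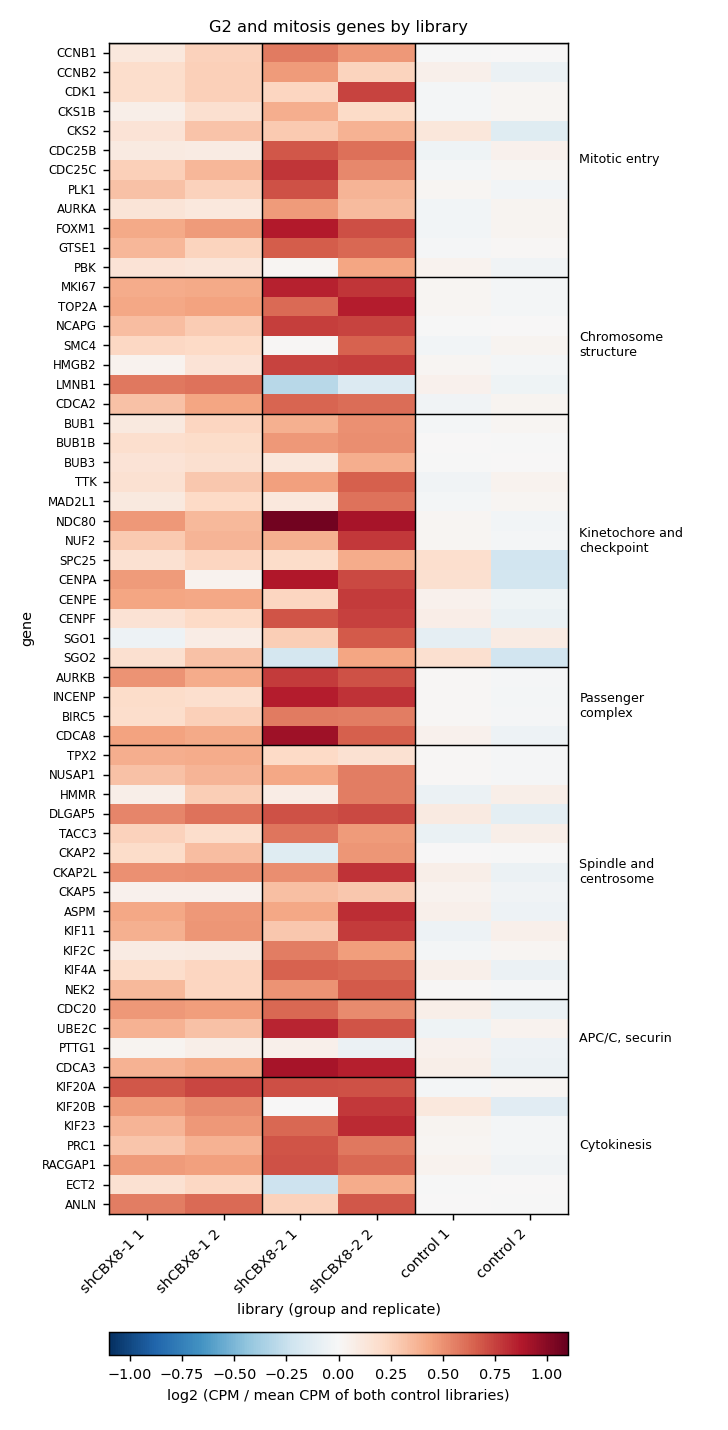
Level of each of the 60 genes (rows, grouped by role) in each of the 6 libraries (columns), as log2 of the CPM over the mean CPM of both control libraries. Red is above the control mean: 59 and 60 of the 60 genes lie above it in the shCBX8-1 libraries and 56 and 58 in the shCBX8-2 libraries, and LMNB1 is red in shCBX8-1 and blue in shCBX8-2.

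Summed over the 60 genes, the level was 6832 and 6978 CPM in the shCBX8-1 libraries, 8028 and 8361 CPM in the shCBX8-2 libraries, and 5683 and 5604 CPM in the control libraries. These genes took 0.694% and 0.703% of all counts in shCBX8-1, 0.758% and 0.818% in shCBX8-2, and 0.582% and 0.579% in control. The 3 groups did not overlap in the summed level, and shCBX8-2 was the highest. With both knockdown groups weighted equally against control, 32 of 60 were called higher, where 3.31% of all genes were, and 0 were called lower by edgeR, at an unadjusted p under 0.05 or by the DESeq2 Wald test, where edgeR called 3.48% of all genes lower. The number of calls rested on single libraries. In shCBX8-1 the member calls were lost without either control library or either shCBX8-1 library, as were nearly all calls over all genes. In those fits 59 or 60 of the 60 members kept a positive estimate. Without either shCBX8-2 library the number of calls rose, among the members and over all genes. In shCBX8-2 it was 5 without control replicate 1, where 0.45% of all genes were called higher, and 2 without control replicate 2, where 0.354% were. It was 53 without shCBX8-2 replicate 1, where the share of all genes was 9.72%, and 45 without shCBX8-2 replicate 2, where it was 13.7%. For the mean of both groups the member calls were again lost without either control or either shCBX8-1 library, as were nearly all calls over all genes. There 59 or 60 of the 60 members had a positive estimate. With all libraries the DESeq2 Wald test called 24 members in shCBX8-1, 48 in shCBX8-2 and 44 for the mean, where it called 4.88% of all genes higher in shCBX8-1, 10.7% in shCBX8-2 and 7.81% for the mean.

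The members called higher in both knockdown groups were AURKB, CDC20, DLGAP5, FOXM1, KIF20A, MKI67 and RACGAP1. LMNB1 and TPX2 passed the test in shCBX8-1 and not in shCBX8-2, 32 members passed in shCBX8-2 and not in shCBX8-1, and 19 passed in neither. Those 19 had positive estimates in both groups, apart from PTTG1 in shCBX8-2.

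Promoters are shown here because the known regulators of these genes act through 2 short elements. The part of these elements in the folds was not tested. RefSeq promoter windows of GRCh38.p14, which run from 250 bases before to 50 bases after the start of the gene, were found for 49 of the 60 members. The CHR was searched as TTTGAA and TTCGAA, and the CCAAT box, which binds the factor NF-Y, as CCAAT, all on both strands. TTCGAA is its own reverse complement. A CHR was found in 36 of 49 member windows (73.5%), against 16.6% of all 27305 promoter windows and 11.6% of the 13051 windows of genes tested. A CCAAT box was found in 73.5% of the member windows, against 35.7% of all windows, and both elements together in 61.2%, against 6.58%. For comparison, 4 of 48 windows of S phase genes (8.33%) held a CHR and 62.5% held a CCAAT box. The 250 bases upstream of the start are printed below for PLK1, MKI67 and CDC20, which hold both elements, for KIF20A, which rose in both knockdown groups and holds 2 CCAAT boxes and neither CHR form, and for LMNB1, which holds none of the elements. Capitals mark the CHR and CCAAT matches on either strand, so that a CCAAT box on the opposite strand reads ATTGG and a CHR on the opposite strand reads TTCAAA. In MKI67 the CHR nearest to the start overlaps a CCAAT box of the opposite strand. The PLK1 sequence is chr16:23678639-23678888, plus strand. The MKI67 sequence is chr10:128126424-128126673, minus strand. The CDC20 sequence is chr1:43358731-43358980, plus strand. KIF20A is taken from chr5:138178862-138179111, plus strand, and LMNB1 from chr5:126776373-126776622, plus strand.
PLK1: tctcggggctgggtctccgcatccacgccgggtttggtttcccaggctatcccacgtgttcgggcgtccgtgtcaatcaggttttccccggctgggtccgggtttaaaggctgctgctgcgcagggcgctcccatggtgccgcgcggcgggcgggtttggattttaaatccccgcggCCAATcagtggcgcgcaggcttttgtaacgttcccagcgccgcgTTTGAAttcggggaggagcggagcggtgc
MKI67: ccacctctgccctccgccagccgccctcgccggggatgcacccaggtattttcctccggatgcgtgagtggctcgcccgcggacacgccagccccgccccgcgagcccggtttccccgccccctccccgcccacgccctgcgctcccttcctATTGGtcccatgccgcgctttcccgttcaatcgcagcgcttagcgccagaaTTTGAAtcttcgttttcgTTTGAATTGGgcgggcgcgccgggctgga
CDC20: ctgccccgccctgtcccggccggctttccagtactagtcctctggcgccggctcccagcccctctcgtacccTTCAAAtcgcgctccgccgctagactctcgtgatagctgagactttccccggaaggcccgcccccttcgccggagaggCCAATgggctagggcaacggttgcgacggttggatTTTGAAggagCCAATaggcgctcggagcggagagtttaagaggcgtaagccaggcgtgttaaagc
KIF20A: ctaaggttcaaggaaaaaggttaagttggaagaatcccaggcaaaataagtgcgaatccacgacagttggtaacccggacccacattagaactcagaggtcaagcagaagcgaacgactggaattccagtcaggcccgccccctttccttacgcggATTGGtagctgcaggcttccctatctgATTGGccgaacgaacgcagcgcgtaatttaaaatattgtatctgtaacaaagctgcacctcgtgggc
LMNB1: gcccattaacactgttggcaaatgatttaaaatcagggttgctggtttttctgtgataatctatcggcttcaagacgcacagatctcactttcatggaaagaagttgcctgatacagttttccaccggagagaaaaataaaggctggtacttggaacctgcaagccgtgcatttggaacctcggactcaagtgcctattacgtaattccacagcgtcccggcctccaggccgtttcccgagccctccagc

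The CHR of PLK1 begins 29 bases before the gene start, and MKI67 has one that begins 29 bases and one that begins 47 bases before. Their CCAAT boxes begin 73 bases before the start in PLK1 and 98 and 24 bases before it in MKI67. The 36 members with a CHR had a median log2 fold change of 0.297 in shCBX8-1 and 0.565 in shCBX8-2, with 3 of them called in shCBX8-1 and 23 in shCBX8-2. The 13 without one had medians of 0.274 in shCBX8-1 and 0.529 in shCBX8-2, with 3 called in shCBX8-1 and 8 in shCBX8-2. Of all genes tested, 1.34% were called higher in shCBX8-1 and 6.03% in shCBX8-2. The medians over all genes tested were -0.0093 in shCBX8-1 and -0.0441 in shCBX8-2. A match is only a match of letters, and a missing one says only that these letters are not in this window.

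Among the 12 genes of mitotic entry, 1 was called higher in shCBX8-1, where 1.34% of all genes were, and 7 in shCBX8-2, where 6.03% were. FOXM1, the transcription factor of G2 and M phase genes, had 148 and 153 CPM in the shCBX8-1 libraries, 203 and 180.4 CPM in the shCBX8-2 libraries, and 108 and 113 CPM in the control libraries. Each knockdown library exceeded both controls, and shCBX8-2 exceeded shCBX8-1. The log2 fold change was 0.44 ± 0.083 in shCBX8-1 (adjusted p = 0.0494) and 0.79 ± 0.083 in shCBX8-2 (adjusted p = 0.00379). On its most abundant single RefSeq transcript the direction was opposite, -0.31 in shCBX8-1 and -0.38 in shCBX8-2. Neither fold was called, in a setting where 0 of 16968 genes were called in either comparison. FOXM1 also overlaps RHNO1, which reached 65.4 CPM, and ITFG2, which reached 12.9 CPM, and whether counting used strand is not given in the sources used here.

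CCNB1, the cyclin B1 subunit that activates CDK1, had 179 and 198 CPM in the shCBX8-1 libraries, 246 and 231 CPM in the shCBX8-2 libraries, and 165 and 166 CPM in the control libraries. The groups did not overlap, with shCBX8-2 highest. CCNB1 rose in shCBX8-2 by 0.53 ± 0.079 (adjusted p = 0.00914), and in shCBX8-1 the fold was 0.19 ± 0.079 (adjusted p = 0.29). CDK1, the kinase that starts mitosis, had 90.5 and 95 CPM in the shCBX8-1 libraries, 93.2 and 133 CPM in the shCBX8-2 libraries, and 78.1 and 80.4 CPM in the control libraries. Its shCBX8-2 libraries stood far apart, the lower one within the range of shCBX8-1, and neither fold was called (0.23 ± 0.16, adjusted p = 0.537 in shCBX8-1, and 0.51 ± 0.16, adjusted p = 0.0796 in shCBX8-2).

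CDC25B, a phosphatase that removes the inhibitory phosphates from CDK1, had 475 and 472 CPM in the shCBX8-1 libraries, 712 and 675 CPM in the shCBX8-2 libraries, and 429 and 457 CPM in the control libraries. Its shCBX8-1 libraries lay just above the controls and its shCBX8-2 libraries far above, and the difference between the knockdown groups was 0.55 ± 0.066 (adjusted p = 0.006). Against control the fold was 0.65 ± 0.066 in shCBX8-2 (adjusted p = 0.00358) and 0.10 ± 0.066 in shCBX8-1 (adjusted p = 0.534). PLK1, a kinase of centrosome maturation and mitotic entry, had 236 and 226 CPM in the shCBX8-1 libraries, 306 and 246 CPM in the shCBX8-2 libraries, and 192 and 186 CPM in the control libraries. The groups did not overlap, and PLK1 rose in shCBX8-2, by 0.55 ± 0.11 (adjusted p = 0.0236). AURKA, the kinase of spindle poles, had 127 and 125 CPM in the shCBX8-1 libraries, 159.6 and 147 CPM in the shCBX8-2 libraries, and 113 and 118 CPM in the control libraries. AURKA rose in shCBX8-2 by 0.41 ± 0.077 (adjusted p = 0.019), and its fold in shCBX8-1 was 0.13 ± 0.077 (adjusted p = 0.462).

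GTSE1, a microtubule-binding protein made in G2, had 61.9 and 57 CPM in the shCBX8-1 libraries, 76.3 and 74.4 CPM in the shCBX8-2 libraries, and 47.5 and 48.6 CPM in the control libraries. The groups were separate, and GTSE1 rose in shCBX8-2 by 0.65 ± 0.084 (adjusted p = 0.00634). CDC25C, a second CDK1 phosphatase, also rose in shCBX8-2, by 0.66 ± 0.13 (adjusted p = 0.0236). CDC25C overlaps FAM53C, which reached 53.3 CPM against a lowest level of 14.1 CPM for CDC25C. The partners of CDK1 that did not pass in either group were CCNB2 (cyclin B2), CKS1B and CKS2, with folds of 0.23, 0.12 and 0.23 in shCBX8-1 and 0.36, 0.31 and 0.33 in shCBX8-2. The kinase PBK had 0.14 in shCBX8-1 and 0.24 in shCBX8-2 and did not pass either, and it overlaps ESCO2, which reached 37.9 CPM.

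Of the 7 genes of chromosome structure and nuclear envelope, 2 rose in shCBX8-1, where 1.34% of all genes did, and 5 in shCBX8-2, where 6.03% did. MKI67 encodes Ki-67, which coats mitotic chromosomes and is the usual marker of dividing cells. It had 298 and 301 CPM in the shCBX8-1 libraries, 405 and 388 CPM in the shCBX8-2 libraries, and 228 and 221 CPM in the control libraries, so that all 3 groups were separate and shCBX8-2 was highest. MKI67 rose 1.33-fold in shCBX8-1 (log2 0.41 ± 0.065, adjusted p = 0.0313) and 1.76-fold in shCBX8-2 (log2 0.82 ± 0.065, adjusted p = 0.00183). TOP2A, the topoisomerase that untangles sister chromatids, had 402 and 409 CPM in the shCBX8-1 libraries, 461 and 548 CPM in the shCBX8-2 libraries, and 306 and 295 CPM in the control libraries. The 3 groups were separate again, and TOP2A rose in shCBX8-2 by 0.75 ± 0.091 (adjusted p = 0.00513), while its fold in shCBX8-1 of 0.43 ± 0.091 did not pass (adjusted p = 0.0635).

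HMGB2, a chromatin protein that bends DNA, had 81.8 and 88.6 CPM in the shCBX8-1 libraries, 133 and 135 CPM in the shCBX8-2 libraries, and 80.7 and 78.5 CPM in the control libraries. Its shCBX8-1 libraries lay next to the controls and its shCBX8-2 libraries stood apart, with a fold of 0.75 ± 0.078 in shCBX8-2 (adjusted p = 0.00363) and 0.10 ± 0.077 in shCBX8-1 (adjusted p = 0.596). LMNB1, which encodes lamin B1 of the nuclear lamina, ran the other way. It had 109.6 and 111 CPM in the shCBX8-1 libraries, 59.3 and 66.2 CPM in the shCBX8-2 libraries, and 75.7 and 70.8 CPM in the control libraries. Both shCBX8-1 libraries lay above and both shCBX8-2 libraries below the controls. LMNB1 rose in shCBX8-1 by 0.59 ± 0.088 (adjusted p = 0.0277), had a fold of -0.22 ± 0.088 in shCBX8-2 that did not pass (adjusted p = 0.148), and was the only member below both controls in both libraries of a knockdown group. NCAPG, a subunit of condensin I, rose in shCBX8-2 by 0.75 ± 0.081, and CDCA2, which brings a phosphatase to mitotic chromatin, by 0.63 ± 0.09. SMC4, the condensin ATPase, had a fold of 0.22 in shCBX8-1 and 0.36 in shCBX8-2 and did not pass in either.

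**Figure D2:**
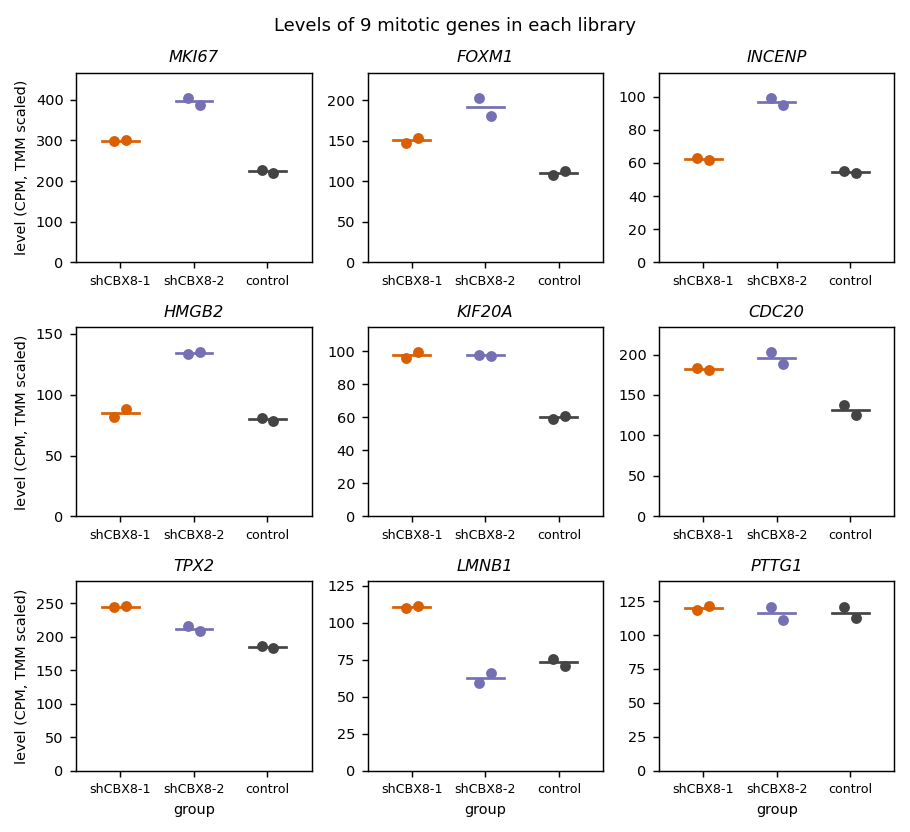
Levels in CPM (vertical axes from 0) of 9 genes in each library, by group, with points for libraries and a bar for the group mean. MKI67, FOXM1 and INCENP are highest in shCBX8-2, KIF20A and CDC20 are similar in both knockdown groups, TPX2 and LMNB1 are highest in shCBX8-1, and PTTG1 overlaps between all groups.

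The 13 kinetochore and spindle checkpoint genes gave 0 calls in shCBX8-1 by edgeR and 7 in shCBX8-2. Of all genes tested, 1.34% were called higher in shCBX8-1 and 6.03% in shCBX8-2. In shCBX8-1, 5 of them had an unadjusted p under 0.05 with a positive fold, and the DESeq2 Wald test called 1, NDC80. NDC80, which binds spindle microtubules at the kinetochore, had 17.1 and 15.7 CPM in the shCBX8-1 libraries, 25.6 and 23 CPM in the shCBX8-2 libraries, and 12.5 and 12 CPM in the control libraries. The 3 groups were separate, and the fold in shCBX8-2, 1.98-fold (log2 0.98 ± 0.12, adjusted p = 0.00562), was the largest estimate of any member in that group. BUB1, a checkpoint kinase, had 56 and 61.1 CPM in the shCBX8-1 libraries, 68.2 and 73.8 CPM in the shCBX8-2 libraries, and 51.2 and 52.7 CPM in the control libraries. BUB1 rose in shCBX8-2 by 0.45 ± 0.09 (adjusted p = 0.0235), with 0.17 ± 0.09 in shCBX8-1 (adjusted p = 0.396).

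BUB1B, which encodes the checkpoint protein BubR1, had 58 and 59 CPM in the shCBX8-1 libraries, 71.2 and 72.7 CPM in the shCBX8-2 libraries, and 51.4 and 50.9 CPM in the control libraries. Both shCBX8-2 libraries were above the rest, with a rise of 0.49 ± 0.078 (adjusted p = 0.0109). CENPF, a large protein of the outer kinetochore, had 146 and 152 CPM in the shCBX8-1 libraries, 211 and 219.7 CPM in the shCBX8-2 libraries, and 137 and 124 CPM in the control libraries. Its shCBX8-2 libraries stood clear of all others, and it rose there by 0.72 ± 0.079 (adjusted p = 0.00403), with 0.19 ± 0.079 in shCBX8-1 (adjusted p = 0.283). CENPA, the histone H3 variant of centromeres, NUF2, a partner of NDC80, and TTK, the checkpoint kinase MPS1, rose in shCBX8-2 by 0.81, 0.59 and 0.55. The 6 members that passed in neither group were BUB3, MAD2L1, SPC25, CENPE, SGO1 and SGO2, with folds of 0.011 to 0.43 in shCBX8-1 and 0.15 to 0.53 in shCBX8-2. SGO1 and SGO2, which protect centromeric cohesion, had the lowest of these estimates, 0.011 for SGO1 in shCBX8-1 and 0.15 for SGO2 in shCBX8-2.

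The chromosomal passenger complex, which corrects kinetochore attachments and later acts at the cleavage site, has 4 subunits. Of these, 1 of 4 was called in shCBX8-1, where 1.34% of all genes were called higher, and 4 of 4 in shCBX8-2, where 6.03% were. AURKB, its kinase, had 81.3 and 76.7 CPM in the shCBX8-1 libraries, 98.6 and 94 CPM in the shCBX8-2 libraries, and 58.1 and 57.3 CPM in the control libraries. The 3 groups were separate, and AURKB rose by 0.45 ± 0.079 in shCBX8-1 (adjusted p = 0.0419) and by 0.74 ± 0.079 in shCBX8-2 (adjusted p = 0.00396). INCENP, the scaffold, had 62.9 and 62 CPM in the shCBX8-1 libraries, 99.3 and 94.7 CPM in the shCBX8-2 libraries, and 55.3 and 54 CPM in the control libraries. It was only a little above control in shCBX8-1 (0.19 ± 0.078, adjusted p = 0.267) and rose 1.78-fold in shCBX8-2 (log2 0.83 ± 0.078, adjusted p = 0.00299).

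BIRC5, the subunit survivin, had 193 and 203 CPM in the shCBX8-1 libraries, 251 and 249.6 CPM in the shCBX8-2 libraries, and 171 and 167 CPM in the control libraries. It rose in shCBX8-2 by 0.57 ± 0.067 (adjusted p = 0.0049), with 0.23 ± 0.067 in shCBX8-1 (adjusted p = 0.15). CDCA8, the subunit borealin, had 53.5 and 52.6 CPM in the shCBX8-1 libraries, 75 and 62.3 CPM in the shCBX8-2 libraries, and 40.8 and 38 CPM in the control libraries. A rise of 0.80 ± 0.11 passed in shCBX8-2 (adjusted p = 0.00756), and the fold of 0.43 ± 0.11 in shCBX8-1 did not pass (adjusted p = 0.109), although all 4 knockdown libraries lay above the controls.

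Of 13 spindle and centrosome genes, 2 rose in shCBX8-1, where 1.34% of all genes did, and 9 in shCBX8-2, where 6.03% did. TPX2, which activates AURKA on the spindle, had 245 and 246 CPM in the shCBX8-1 libraries, 216 and 208 CPM in the shCBX8-2 libraries, and 187 and 184 CPM in the control libraries. Unlike most members it was highest in shCBX8-1, with no overlap between groups, and rose there by 0.41 ± 0.066 (adjusted p = 0.0336), while the fold in shCBX8-2 was 0.20 ± 0.066 (adjusted p = 0.101). DLGAP5, which encodes the microtubule protein HURP, had 78.7 and 82.3 CPM in the shCBX8-1 libraries, 88.2 and 89.6 CPM in the shCBX8-2 libraries, and 58.1 and 50.5 CPM in the control libraries. It rose by 0.57 ± 0.094 in shCBX8-1 (adjusted p = 0.0355) and by 0.71 ± 0.094 in shCBX8-2 (adjusted p = 0.00682).

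KIF11, the kinesin Eg5 that pushes spindle poles apart, had 106 and 114 CPM in the shCBX8-1 libraries, 99.9 and 139 CPM in the shCBX8-2 libraries, and 78.1 and 84.3 CPM in the control libraries. All 4 knockdown libraries lay above control, but the shCBX8-2 libraries lay on either side of shCBX8-1, and neither fold passed (0.44 ± 0.15, adjusted p = 0.203 in shCBX8-1, and 0.55 ± 0.15, adjusted p = 0.0578 in shCBX8-2). KIF4A, a chromosome-bound kinesin, had 62 and 64 CPM in the shCBX8-1 libraries, 85.1 and 84.2 CPM in the shCBX8-2 libraries, and 56.6 and 52.1 CPM in the control libraries. Its shCBX8-2 libraries stood above all others, and the fold there was 0.64 ± 0.083 (adjusted p = 0.00642). Other members that rose in shCBX8-2 were KIF2C, a kinesin that takes microtubules apart (0.51), the pole protein ASPM (0.63), NUSAP1 (0.50), the centrosome kinase NEK2 (0.59), CKAP2L (0.66), and TACC3 with its partner CKAP5, which stabilise spindle microtubules (0.53 and 0.31). TACC3 overlaps TMEM129, which reached 86.6 CPM. HMMR and CKAP2 did not pass, with 0.34 and 0.21 in shCBX8-2.

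Among the 4 genes around the APC/C, 1 rose in shCBX8-1, where 1.34% of all genes did, and 3 in shCBX8-2, where 6.03% did. CDC20, which activates the complex at anaphase, had 183 and 181 CPM in the shCBX8-1 libraries, 203 and 189 CPM in the shCBX8-2 libraries, and 137 and 125 CPM in the control libraries. All knockdown libraries lay above both controls, and the lowest shCBX8-2 library above both of shCBX8-1. CDC20 rose by 0.47 ± 0.08 in shCBX8-1 (adjusted p = 0.038) and by 0.58 ± 0.08 in shCBX8-2 (adjusted p = 0.00751). UBE2C, its ubiquitin-conjugating enzyme, had 124 and 118 CPM in the shCBX8-1 libraries, 169 and 153 CPM in the shCBX8-2 libraries, and 92.1 and 97.8 CPM in the control libraries. UBE2C rose in shCBX8-2 by 0.76 ± 0.084 (adjusted p = 0.00401), and in shCBX8-1 its fold was 0.35 ± 0.083 (adjusted p = 0.0865).

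CDCA3, a substrate of the APC/C, had 45.6 and 46.7 CPM in the shCBX8-1 libraries, 65.7 and 63.1 CPM in the shCBX8-2 libraries, and 36.6 and 33.4 CPM in the control libraries. Its 3 groups were separate, and it rose 1.84-fold in shCBX8-2 (log2 0.88 ± 0.09, adjusted p = 0.00363). PTTG1, the securin that holds back separase, had 119 and 121 CPM in the shCBX8-1 libraries, 121 and 111 CPM in the shCBX8-2 libraries, and 120.5 and 112 CPM in the control libraries. The groups overlapped throughout, with folds of 0.045 ± 0.081 in shCBX8-1 (95% interval -0.15 to 0.24) and -0.0044 ± 0.081 in shCBX8-2 (95% interval -0.20 to 0.19), so the upper bounds lie under the median fold of the members in each group.

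Of 7 genes of the central spindle and cytokinesis, 2 rose in shCBX8-1, where 1.34% of all genes did, and 4 in shCBX8-2, where 6.03% did. KIF20A, the kinesin MKLP2 that carries the passenger complex to the central spindle, had 95.9 and 99.4 CPM in the shCBX8-1 libraries, 97.8 and 97.1 CPM in the shCBX8-2 libraries, and 58.9 and 60.9 CPM in the control libraries. The knockdown libraries lay close together and far above both controls. KIF20A rose 1.63-fold in shCBX8-1 (log2 0.71 ± 0.075, adjusted p = 0.011) and 1.63-fold in shCBX8-2 (log2 0.70 ± 0.075, adjusted p = 0.00392). It was the largest estimate of any member in shCBX8-1. KIF20A overlaps CDC23, which reached 67.8 CPM, and without a statement on strand the 2 genes' reads may not be fully separate.

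RACGAP1, the partner of KIF23 in the centralspindlin complex, had 113 and 111 CPM in the shCBX8-1 libraries, 133 and 126 CPM in the shCBX8-2 libraries, and 83.5 and 79.5 CPM in the control libraries. It rose by 0.46 ± 0.074 in shCBX8-1 (adjusted p = 0.0336) and by 0.67 ± 0.074 in shCBX8-2 (adjusted p = 0.00412). PRC1, which bundles antiparallel microtubules and shares only its name with the Polycomb complex, had 254 and 268 CPM in the shCBX8-1 libraries, 332 and 306 CPM in the shCBX8-2 libraries, and 208 and 202 CPM in the control libraries. It rose in shCBX8-2 by 0.64 ± 0.074 (adjusted p = 0.00459), as did KIF23, a motor of the central spindle, by 0.73 ± 0.088 (adjusted p = 0.00509). ANLN, the scaffold anillin, had a fold of 0.59 ± 0.14 in shCBX8-1 that did not pass (adjusted p = 0.0799). It passed only for the mean of both groups (0.54 ± 0.12, adjusted p = 0.0464). ECT2, the exchange factor for the GTPase RhoA, and KIF20B passed in neither group, with 0.20 and 0.49 in shCBX8-1 and 0.13 and 0.44 in shCBX8-2.

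**Figure D3:**
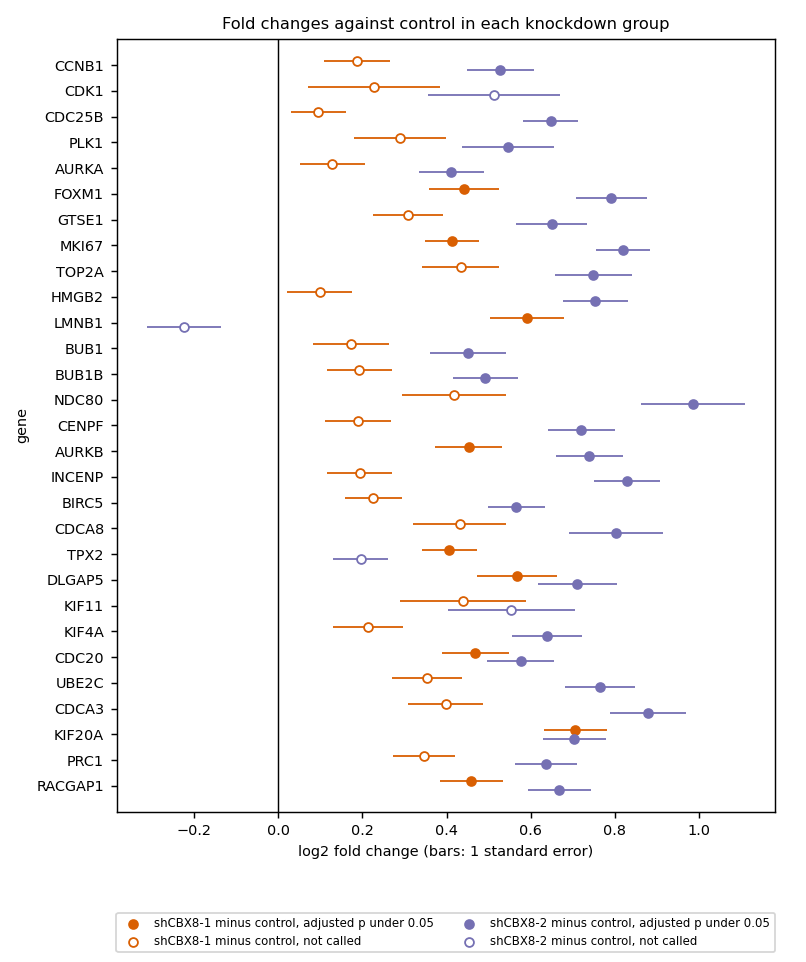
Log2 fold change against control (horizontal axis, bars 1 standard error) of 29 genes, 1 row each, with shCBX8-1 above shCBX8-2 in each row. Filled points passed an adjusted p of 0.05. The shCBX8-2 point lies to the right of the shCBX8-1 point in most rows, and LMNB1 and TPX2 are exceptions.

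The knockdown groups were also compared directly. In shCBX8-2 minus shCBX8-1, 14 members were called higher, where 4.05% of all genes were, and 1 was called lower, where 5.77% of all genes were. The median over the members was 0.271, against -0.0128 over all genes tested, and 38 members had both shCBX8-2 libraries above both shCBX8-1 libraries, where the share of all genes was 26.2%. The 14 were spread over 6 of the 7 roles: CCNB1, CDC25B and FOXM1 of mitotic entry, MKI67, NCAPG and HMGB2 of chromosome structure, NDC80 and CENPF of the kinetochore, INCENP and BIRC5 of the passenger complex, KIF2C and KIF4A of the spindle, and UBE2C and CDCA3 around the APC/C. By edgeR 0 of the 7 cytokinesis genes were among them, with 3 at an unadjusted p under 0.05 and a positive difference and 3 called by the DESeq2 Wald test (KIF23, PRC1 and RACGAP1). LMNB1 was the member that was lower in shCBX8-2. Leaving out shCBX8-1 replicate 1 gave 50 members with a positive difference, and leaving out replicate 2 gave 51, the number with all libraries. In edgeR the calls of members as higher in shCBX8-2 were lost in both fits, as were most such calls over all genes. Without control replicate 1 or replicate 2, which add only to the shared spread, there were 5 (CDC25B, CENPF, HMGB2, INCENP and MKI67), where 1.19 to 1.2% of all genes were called higher. Without shCBX8-2 replicate 1 there were 34, where the share of all genes was 7.23%, and without shCBX8-2 replicate 2 there were 29, where it was 12.3%. Without shCBX8-2 replicate 2, 5 members were also called lower in shCBX8-2 than in shCBX8-1 (ANLN, CKAP2, ECT2, KIF20B and LMNB1), where 16.3% of all genes were. The DESeq2 Wald test called 27 higher, where it called 8.07% of all genes.

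HMGB2 averaged 134 CPM in shCBX8-2 and 85.2 CPM in shCBX8-1, a log2 difference of 0.66 ± 0.077 (adjusted p = 0.00586). INCENP differed by 0.64 ± 0.078 (adjusted p = 0.00649) and NDC80 by 0.57 ± 0.12 (adjusted p = 0.0349). LMNB1 averaged 62.7 CPM in shCBX8-2 and 110.4 CPM in shCBX8-1, a difference of -0.82 ± 0.089 (adjusted p = 0.00447). KIF20A differed by -0.0028 ± 0.075, with a 95% interval of -0.18 to 0.17, and CDC20 by 0.11 ± 0.079, with an interval of -0.081 to 0.30. Neither passed, and the intervals are narrower than the folds of both genes against control. DLGAP5 and RACGAP1 had differences of 0.14 (interval -0.08 to 0.37) and 0.21 (interval 0.033 to 0.39) that did not pass.

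The shCBX8-2 libraries differed from each other along the base composition of the genes. Over the 60 members, the log2 ratio of replicate 1 to replicate 2 correlated with GC content at Pearson's r = 0.751 (Spearman's rho = 0.798) in shCBX8-2, at 0.354 (0.407) in shCBX8-1 and at -0.183 (-0.106) in control. Over all genes tested that had a GC value, Spearman's rho was 0.5 in shCBX8-2, 0.129 in shCBX8-1 and -0.0965 in control. These are descriptions over genes that share the same libraries. The 10 members of lowest GC content, 34.2 to 38.3%, had a median log2 ratio of -0.577 in shCBX8-2, and 1 of them, ASPM, was called in that group. The others of these 10 were KIF20B, SGO2, CENPE, HMMR, CKAP2, CDK1, SMC4, ECT2 and KIF11. The 10 of highest GC content, 52.2 to 59.6%, had a median ratio of 0.0728, and all 10 were called: INCENP, CDC25B, CDC20, TACC3, PLK1, FOXM1, AURKB, GTSE1, CDCA3 and BIRC5. Of all genes tested, 6.03% were called higher in shCBX8-2. The share among all genes of similar GC content was not computed. Members had a median GC content of 43.2%, against 49.5% over the genes tested that had a value.

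With the GC trend of each library removed, a setting chosen after the data were seen, 26 members were called in shCBX8-1, where 4.82% of all genes were called higher, and 56 in shCBX8-2, where 12.0% were. DLGAP5, called in shCBX8-1 without this step, was not called there with it (log2 0.57, edgeR adjusted p = 0.0602). For the mean of both groups there were 53, where 8.55% of all genes were called higher. CDK1 then had a log2 fold change of 0.75 in shCBX8-2 (edgeR adjusted p = 0.000686) and KIF11 of 0.73 (adjusted p = 0.000705). The 4 members not called in shCBX8-2 in that setting were LMNB1, PTTG1, SGO2 and SPC25. The difference of the knockdown groups then gave 38 calls higher in shCBX8-2, where the share of all genes was 8.68%, with LMNB1 and TPX2 lower.

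**Figure D4:**
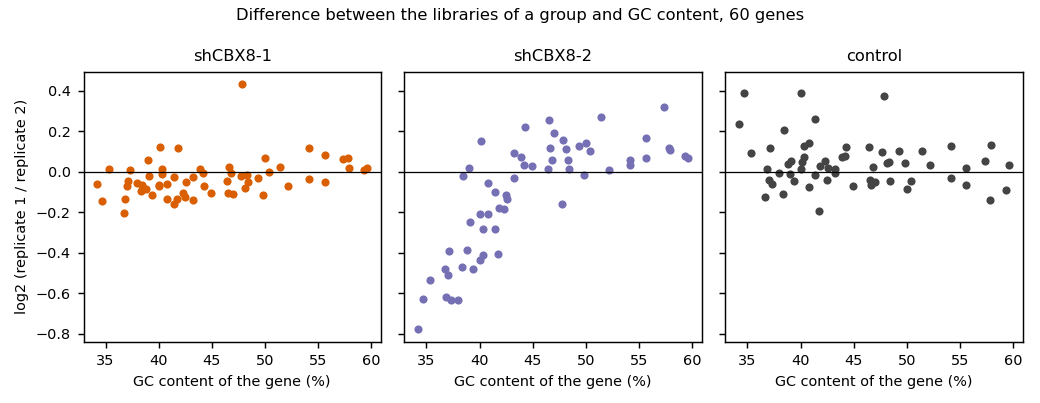
Log2 ratio of replicate 1 to replicate 2 (vertical axis) against GC content in percent (horizontal axis) for the 60 genes, with a panel for each group. In shCBX8-2 the ratio climbs with GC content to a level near 0, and the control panel shows no such slope.

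Other genes of the cell cycle were read from lists chosen with earlier results of these data known. Over all genes tested, 1.34% were called higher in shCBX8-1 and 6.03% in shCBX8-2. Of 40 other mitotic genes, 6 rose in shCBX8-1 and 26 in shCBX8-2, with medians of 0.279 in shCBX8-1 and 0.656 in shCBX8-2. Among them SPAG5, a spindle protein, rose by 0.39 in shCBX8-1 and 0.76 in shCBX8-2, TRIP13, an ATPase of the checkpoint, by 0.42 in shCBX8-1 and 0.67 in shCBX8-2, and FAM83D, a spindle protein, by 0.54 in shCBX8-1 and 0.71 in shCBX8-2. Of 27 genes of the inner kinetochore and the microtubule-binding network, 11 rose in shCBX8-2, among them SPC24 (0.80), which completes the NDC80 complex, KNTC1 (0.80) and CENPU (0.70). Of 18 condensin and cohesin genes, 7 rose in shCBX8-2, among them NCAPH (0.69), NCAPG2 (0.60) and SMC1A (0.61). The 16 genes of the APC/C core had 2 calls in shCBX8-2, CDC23 (0.40) and the activator FZR1 (0.42), and ANAPC16 did not pass (0.18), with a list median of 0.115. CDC23 overlaps the member KIF20A, and the reads of these genes may not be fully separate.

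Of 21 MuvB, DREAM and E2F regulators, 4 rose in shCBX8-2: MYBL2, by 0.87 ± 0.12 (adjusted p = 0.00706), E2F8, by 0.63, E2F1 and RBL1. TFDP1, the partner of E2F factors, did not pass (0.26). MYBL2, which joins the MuvB core at the CHR, had 166 and 162 CPM in the shCBX8-1 libraries, 279 and 219 CPM in the shCBX8-2 libraries, and 132 and 140.4 CPM in the control libraries. Both shCBX8-2 libraries lay above the rest. In shCBX8-1, where edgeR called 1.34% of all genes higher, it called 0 in each of these kinetochore, condensin and cohesin, APC/C and regulator lists. In these lists, 2 to 4 genes each had an unadjusted p under 0.05 and a positive fold, and the DESeq2 Wald test called 0 to 2 each. Of 54 S phase genes, 1 was called higher in shCBX8-1 and 33 in shCBX8-2, with medians of 0.22 in shCBX8-1 and 0.513 in shCBX8-2. The 3 with the smallest p for the mean of both groups were FEN1 (0.35 in shCBX8-1, not called, and 0.76 in shCBX8-2), TK1 (0.56 in shCBX8-1 and 0.73 in shCBX8-2, both called) and RRM2 (-0.18 in shCBX8-1, not called, and 1.27 in shCBX8-2).

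**Figure D5:**
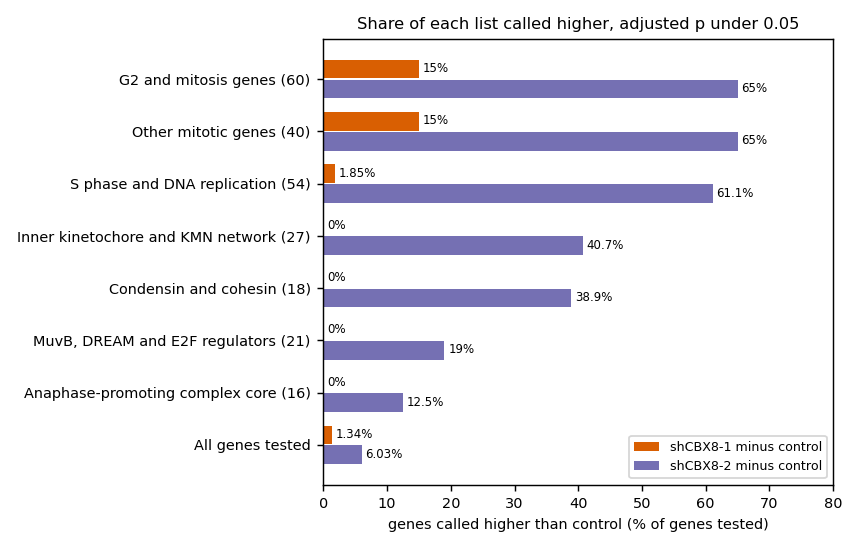
Share of each list called higher than control (horizontal axis, percent of genes tested, from 0) in shCBX8-1 and in shCBX8-2, with all genes tested at the bottom and the number of genes in parentheses. The G2 and mitosis genes and the other mitotic genes reach 15% in shCBX8-1 and 65% in shCBX8-2, and S phase genes reach 61.1% in shCBX8-2 and 1.85% in shCBX8-1.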

How the data were processed

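The authors deposited 1 table of expected counts, estimated read counts per RefSeq transcript that were whole numbers, and per the submitters' processing notes HISAT2 2.2.1, StringTie 2.2.1 and DESeq2 1.34.0 were used with hg38. Which tool did which step, and which annotation and strand setting were used, is not given in the sources used here. Of 84787 transcript entries, 83963 were matched to a gene by RefSeq and 357 by GENCODE, and entries were summed per gene. Genes were filtered with filterByExpr (minimum count 10, minimum total 15), scaled by TMM and tested with edgeR 4.0.16 in R 4.3.3, by a quasi-likelihood model of 3 groups on all 6 libraries with 3 residual degrees of freedom (common dispersion 0.0369). Tests were two-sided, with Benjamini-Hochberg adjustment over all 17115 genes and a threshold of 0.05. Standard errors and 95% intervals come from the F statistic. The pipeline was tested on simulated data.

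Depth is given at the start of the report. The members, role groups and pathway lists were chosen with earlier results of these data known. Values per library are given for 17 preset members, for the 2 members of each role with the smallest p against control in each knockdown group, and for the 1 with the smallest p between the knockdown groups. Of each pathway list, 3 genes were named by the smallest p for the mean of both groups, and other genes were named after their values were seen. Alternatives were DESeq2 1.42.0 size factors and Wald test, removal of trends with abundance and with GC content (of the longest GENCODE coding transcript), no filter, 1 library left out, a replicate block, fits on fewer libraries, knockdown libraries as 1 group, no repeated accessions, and single transcripts. Promoter windows are from RefSeq. Replicate numbers do not pair libraries by the labels, and differences between replicates correlated between groups at -0.0171 to 0.0164.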

Additional observations from a re-analysis of the deposited data

Results flagged for a closer look

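The knockdown groups differed in 15 members by the test of the difference itself (edgeR, adjusted over all genes tested). LMNB1 was lower in shCBX8-2 than in shCBX8-1, by a log2 difference of -0.82 (adjusted p = 0.00447), with 62.7 CPM in shCBX8-2 and 110.4 CPM in shCBX8-1, on either side of the 73.2 CPM of control. It was the only member whose knockdown groups lay on opposite sides of both control libraries. Of the 14 members that were higher in shCBX8-2, HMGB2 differed by 0.66, INCENP by 0.64, NDC80 by 0.57, CDC25B by 0.55 and CENPF by 0.53. CDCA3 differed by 0.48, NCAPG by 0.44, KIF4A by 0.43, KIF2C by 0.42, MKI67 by 0.41 and UBE2C by 0.41. FOXM1 differed by 0.35, CCNB1 by 0.34 and BIRC5 by 0.34, and their adjusted p-values were 0.0459, 0.0426 and 0.0272. All 14 were higher in both shCBX8-2 libraries than in both shCBX8-1 libraries. The level of CBX8 itself also differed, with 15.8 CPM in shCBX8-2 and 7.75 CPM in shCBX8-1, and its part in these differences was not tested.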

How the results depend on the processing

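Leaving out 1 library in turn gave 0 to 34 members called higher in shCBX8-1, 2 to 53 in shCBX8-2, 0 to 34 for shCBX8-2 minus shCBX8-1 and 0 to 56 for the mean of both groups, with medians of 0.282 to 0.325 in shCBX8-1 and 0.506 to 0.647 in shCBX8-2. Such fits have 2 residual degrees of freedom and assume that a lone library varies like the other groups. Against the fit on all libraries, calls over all genes rose and fell in the same fits as those of the members. The DESeq2 Wald test called 24 members in shCBX8-1 and 27 for the difference. With a replicate block, 1 member (KIF20A) was called in shCBX8-1, where 0.567% of all genes were called higher, and 39 in shCBX8-2, where 4.62% were. The block gave 7 for the difference, where 2.36% of all genes were called higher, and 24 for the mean, where 2.0% were. Fits on only the libraries compared called 34 in shCBX8-1, where 7.93% of all genes were called higher, and 5 for the difference, where 1.35% were. All knockdown libraries as 1 group called 1 (KIF20A) for the mean, where 0.0935% of all genes were called higher. On the most abundant transcript of each gene the edgeR fits called 0 members in all 4 comparisons. Those fits called almost nothing: of 16968 genes, 1 was called higher for the difference and 0 in the other comparisons. Of the members, 15 to 34 had an unadjusted p under 0.05 in either direction, and the share of all genes at that threshold was not computed. Positive estimates were found for 57 members in shCBX8-1, 54 in shCBX8-2, 42 for the difference and 57 for the mean. The median of the difference was 0.170. On these transcripts FOXM1 had -0.31 in shCBX8-1, -0.38 in shCBX8-2, -0.071 for the difference and -0.34 for the mean. For the difference MKI67 had -0.081 and RACGAP1 -0.70. With the GC trend removed, which was chosen after seeing the data, 26 were called in shCBX8-1, 38 for the difference and 53 for the mean. The difference of KIF20A, near 0, was 0.0056 with DESeq2 size factors, 0.0056 in the Wald test and -0.055 to 0.0038 without 1 library, and that of KIF11 was -0.14 to 0.34 without 1 library. The causes were not tested. Removal of the abundance trend, no filter on low counts and no repeated accessions left every number of members called higher within 1.5 times, and for the difference the first and the last of these called 2 members lower (LMNB1 and TPX2), against 1. Calls against control share the control libraries, and at 2 libraries a group a call near the threshold is not firm. Each library held 64197784 or more estimated counts, and how calls depend on depth was not tested.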

Other observations

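The split of the estimated counts of some members between RefSeq transcripts differed between libraries. NM_021953, the leading FOXM1 transcript, took 54.7 and 34.4% of the counts of FOXM1 in the shCBX8-1 libraries, 14.2 and 54.4% in the shCBX8-2 libraries, and 77.1 and 71.7% in the control libraries. NM_002417, the leading MKI67 transcript, took at least 99.9% of its gene's counts in both shCBX8-1 libraries, 43.8% in shCBX8-2 replicate 1 and nearly all in shCBX8-2 replicate 2, and at least 94.6% in both control libraries. For FOXM1 both control libraries lay above all 4 knockdown libraries, while for MKI67 a single shCBX8-2 library stood apart. NM_001319999 of RACGAP1 took 71.8 and 43.9% in shCBX8-1, 30.2 and 31.5% in shCBX8-2, and 32.9 and 58.9% in control. These shares depend on how reads common to several transcripts were divided, a step not given in the sources used here, and no test was run on them.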
